A study of Homo sapiens with 6 samples.

Results

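The genes described here carry the cell's membrane and secretory traffic, from the entry of proteins into the endoplasmic reticulum (ER) to the fusion of vesicles with their target membranes. They were chosen by symbol, with earlier results of these data known. The rows taken began with RAB, ARF, ARL, SEC, STX or VAMP followed by a digit. Rows beginning with TRAPPC, COPA, COPB, COPE, COPG, COPZ or TMED were also taken. This gave 130 of the 8529 genes measured. The cells were SW480, a human colorectal adenocarcinoma line of genotype WT, cultured for 72 h in wells coated with hydrogels of 2 kPa or 25 kPa, with 3 libraries at each stiffness. A stiffness in kPa is the resistance of the gel to deformation, so the 25 kPa gels were the stiffer of the pair, and the libraries differed in no other labelled factor. The labels give triplicate wells of a single line and do not say whether these were independent experiments. The p-values below therefore rest on the spread between these libraries. The limma fit used below moderates each gene's variance towards a trend over all genes. Its p-values and standard errors (SE) thus also draw on the other genes.

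Traffic between organelles follows a common order. Ribosomes deliver new secretory proteins to the SEC61 channel of the ER, COPII coats bud vesicles towards the Golgi apparatus, and COPI coats, recruited by ARF GTPases, return material to the ER. RAB GTPases then mark each membrane and recruit tethers such as TRAPP and the exocyst, after which SNARE proteins (the syntaxins and VAMPs) fuse the membranes. Epithelial cells depend on this machinery to place adhesion and transport proteins at their surface and to take them up again.

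Expression was given as FPKM, fragments scaled to transcript length and to the mapped fragments of the library. This scaling is meant to allow levels to be compared between genes. How well reads were assigned to each gene was not tested, so the orders of genes by level below are those of the deposited FPKM. The summed FPKM of a library ranged from 201030 to 263028, and the number of reads behind a value is unknown. Libraries of the same stiffness correlated at r = 0.974 to 0.988 across all genes on the log2(FPKM + 1) scale. Of the 12 epithelial and colorectal markers listed, 8 were measured, with a summed level of 4481 to 4811 FPKM at 2 kPa and 3690 to 4862 FPKM at 25 kPa. KRT18 and KRT19, keratins of simple epithelia, made up most of that sum. KRT20 and CDX1, which mark differentiated intestinal cells, were near 0 with means of 0.0533 and 0.0933 FPKM. Of the others measured, EPCAM averaged 79.6, VIL1 18.7, CDH1 5.25 and CDX2 0.447 FPKM. Among the markers of other cell types measured, the leukocyte gene CD14 ranged from 0.17 to 1.83 FPKM, and the fibroblast genes LUM and PDGFRB together from 0.3 to 1.05 FPKM. Of the endothelial markers, 0 of 4 were in the table. The table held no value of 0 (lowest 0.01 FPKM), and KRT8 was among the epithelial markers absent from it. Absence of a gene, here or in the steps below, therefore does not show that it was unexpressed.

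The transport genes took between 0.961% and 1.15% of each library's FPKM. Their levels ran from a mean of 0.125 FPKM to 268 FPKM over all 6 libraries, with a median of 3.87 FPKM beside 2.61 FPKM over all genes. A mean of at least 100 FPKM was reached by 7 genes, 42 reached at least 10 FPKM, 50 lay between 1 and 10 FPKM, and 38 lay under 1 FPKM. The most abundant were SEC61G, SEC61B, ARF5, SEC61A1, COPE, ARF4 and TMED9, which act at the ER and early Golgi membranes.

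**Figure D1:**
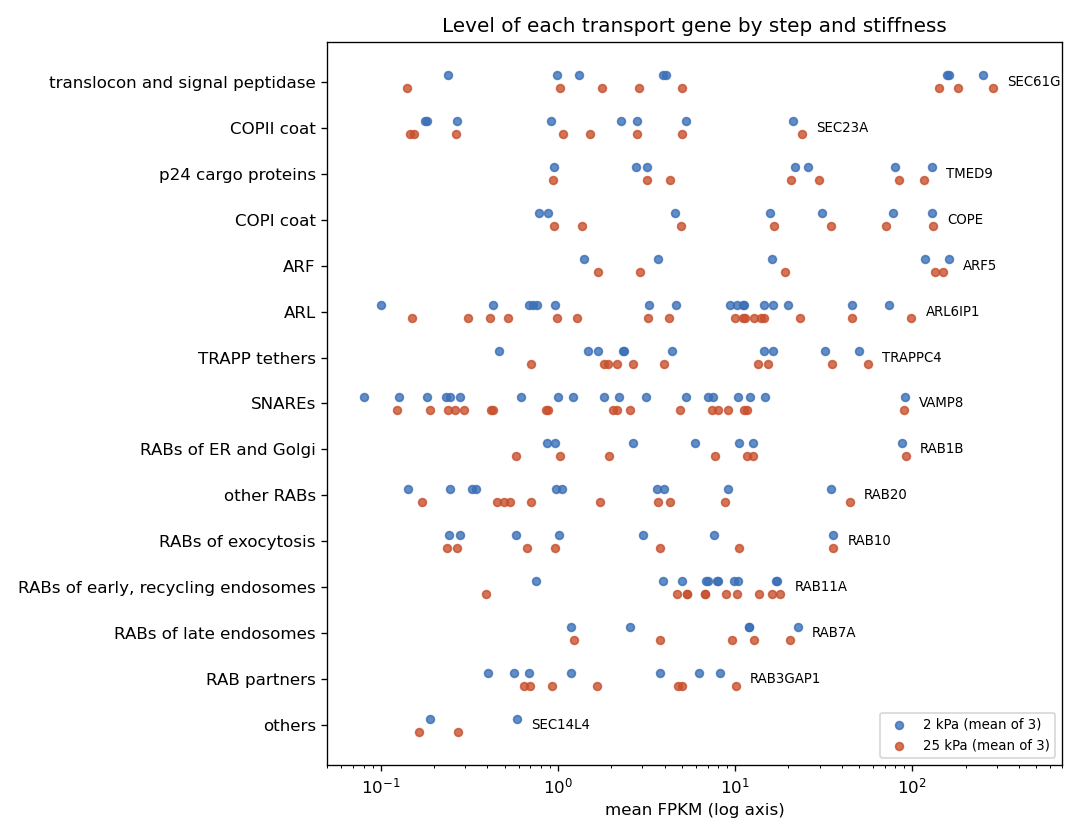
Mean FPKM of each of the 130 transport genes (horizontal log axis) by transport step, with the mean of the 3 libraries at 2 kPa in blue and at 25 kPa in red, and the most abundant gene of each step named. Levels within a step differ far more between genes than between stiffnesses, as for COPE at 129 FPKM and 131 FPKM against COPA at 0.783 FPKM and 0.95 FPKM.

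The first question the design allows is which transport genes differed between the soft and the stiff gel. No transport gene passed an adjusted p under 0.05 (limma, two-sided, Benjamini-Hochberg over all genes), beside 10 genes (0.117%) of the whole table. The lowest adjusted p among them was 0.184, for ARL6IP1. At an unadjusted p under 0.05 there were 4, namely ARL6IP1, RAB5A, RAB13 and RAB20, or 3.08% beside 10.2% of all genes. DESeq2, which the study used, needs counts and was not run. The median log2 fold change (25 kPa minus 2 kPa) was 0.06 over the transport genes and 0.05 over all genes, and 59.2% of transport genes against 59.6% of all genes lay above 0. Single values ran from -0.76 for STX3 to 0.44 for RAB5A. In RNA of whole cultures, a difference in a subset of cells and a difference in RNA per cell cannot be told apart.

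The intervals show how large a change of log2(FPKM + 1) these libraries leave room for. For the 38 genes under 1 FPKM, the pseudocount of 1 draws value and interval towards 0. A narrow interval then does not bound the change of FPKM itself. STX16, for example, averaged 0.08 FPKM at 2 kPa and 0.263 FPKM at 25 kPa, with an interval of -0.02 to 0.46. The 95% interval of the log2 fold change lay within 0.5 of 0 for 52 transport genes (40%), beside 34.5% of all genes, and within 1 of 0 for 122 (93.8%), beside 89% of all genes. Among the 42 transport genes with a mean of at least 10 FPKM, 28 had an interval within 0.5 (66.7%, beside 42.9% of the 2229 genes at that level), and all 42 had one within 1. At that level 3 transport genes (7.14%) had an unadjusted p under 0.05, beside 17.4% of all genes.

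**Figure D2:**
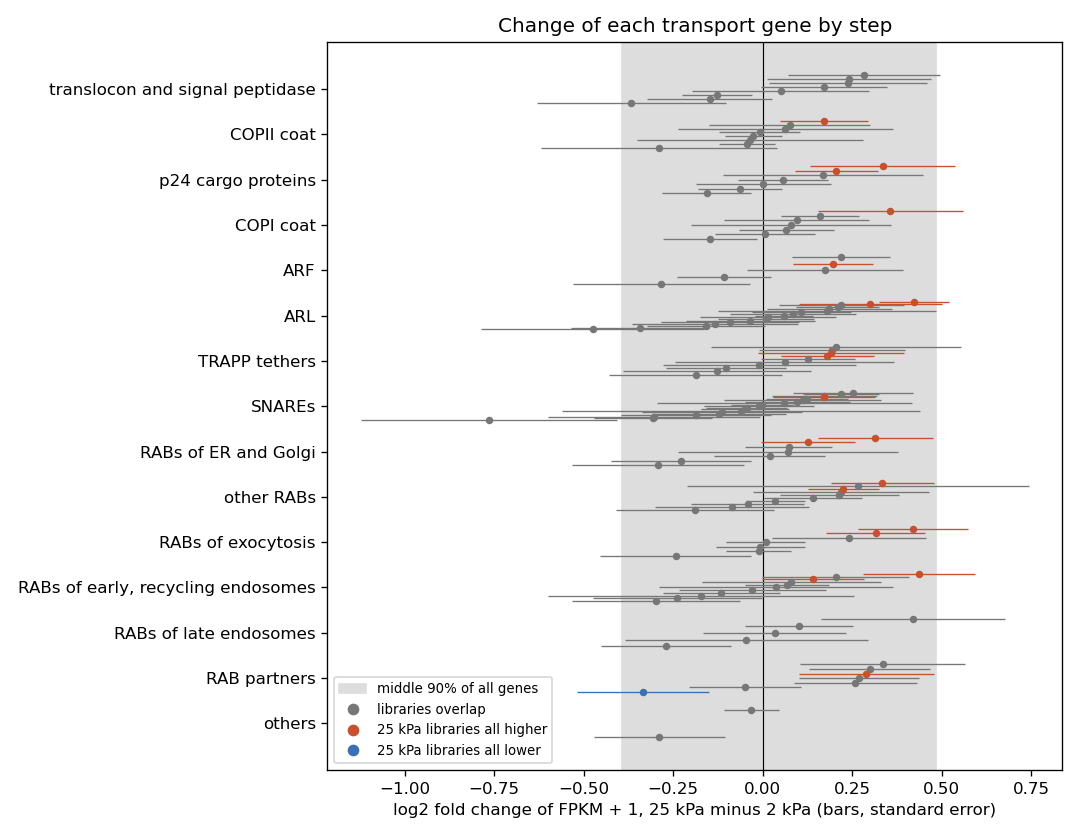
Log2 fold change of FPKM + 1 (25 kPa minus 2 kPa) for each transport gene by step, with bars for the standard error. Red marks genes with every 25 kPa library above every 2 kPa library, blue the reverse, and grey overlap, while the shaded band holds the middle 90% of all genes, from -0.39 to 0.48. Most genes lie inside the band, and STX3 at -0.76 lies farthest from it.

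ARL6IP1, a membrane protein that helps to shape the tubular ER, was the transport gene with the smallest p. Its level was 73.1, 72.6 and 74.7 FPKM in the 2 kPa libraries and 101.4, 96.8 and 98.4 FPKM in the 25 kPa libraries. All 3 libraries on the stiff gel were above all 3 on the soft gel, and within each group the libraries lay close together, with SDs of 1.1 FPKM and 2.4 FPKM. The mean was 34.6% higher at 25 kPa, and the log2 fold change was 0.42 (SE 0.10, limma adjusted p = 0.184). This SE is the moderated one and does not reflect the closeness of these libraries alone. An exact permutation test of 3 libraries against 3 cannot go below p = 0.1, which is the value it gave (two-sided). ARL6IP1 is among the genes that the study displayed from the same libraries, so its position here is no independent evidence. Its unadjusted p stayed under 0.05 in all 16 settings tried, including the main one, with a log2 fold change of 0.30 to 0.44. ARL6IP1 lies at chr16:18791667-18801678 on the minus strand of GRCh38 (GENCODE 29) and overlaps AC138811.2, annotated on the same strand, so reads of the pair may not have been separable.

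The 250 bases before a RefSeq start of ARL6IP1 are shown because it was the leading member (GRCh38.p14, 5′ to 3′ in the direction of the gene). Capitals mark 2 copies of the CCAAT box, a common promoter motif, 1 of them on the reverse strand.
ARL6IP1 promoter (chr16:18801550-18801799, - strand): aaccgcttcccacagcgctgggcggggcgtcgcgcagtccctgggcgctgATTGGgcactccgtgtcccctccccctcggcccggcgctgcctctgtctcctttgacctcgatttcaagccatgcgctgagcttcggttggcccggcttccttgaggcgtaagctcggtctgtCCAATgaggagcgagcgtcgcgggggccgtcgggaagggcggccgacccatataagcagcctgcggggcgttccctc
The CCAAT boxes begin 200 and 77 bases before the annotated start. Letters searched on both strands were CCAAT as above, then TTTGAA (the cell cycle homology region), GGAATG (the TEAD core), TGACTCA (the AP-1 site) and TGACGTG (the core of the unfolded protein response element, which overlaps the cAMP response half-site TGACG). The first of these, CCAAT, was present in 32.0% of all 35116 promoter windows and 31.8% of the 151 windows of transport genes. The corresponding shares were 13.3% and 9.27% for TTTGAA, 11.9% and 9.93% for GGAATG, and 4.20% and 1.99% for TGACTCA. Over the 8736 windows of genes in the table, the shares were 33.7% for CCAAT, 8.75% for TTTGAA, 9.91% for GGAATG and 2.70% for TGACTCA. None of the 5 motifs was found in the windows of RAB5A and RAB13.

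The gene nearest to ARL6IP1 in rank was RAB5A, the GTPase that controls fusion of early endosomes. RAB5A stood at 8.74, 11.4 and 9.26 FPKM at 2 kPa and at 14.5, 11.7 and 14.6 FPKM at 25 kPa. The groups did not overlap, although replicate 2 at 25 kPa was only slightly above replicate 2 at 2 kPa. The log2 fold change was 0.44 (SE 0.16, limma adjusted p = 0.394). Its paralog RAB5B, a GTPase of the same membranes, was about 20.4-fold less abundant, and its libraries overlapped, with a log2 fold change of -0.30 (SE 0.23) that was -0.71 and -0.88 with pseudocounts of 0.1 and 0.01. RAB5A overlaps PP2D1 on the opposite strand, and whether the libraries kept strand is not stated.

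RAB13, which takes part in the delivery of proteins to epithelial tight junctions, was measured at 6.80, 8.48 and 7.47 FPKM at 2 kPa and at 9.26, 10.98 and 11.2 FPKM at 25 kPa. Every stiff library was above every soft one, and the log2 fold change was 0.42 (SE 0.15, limma adjusted p = 0.400). RAB20, a GTPase of endosomes and phagosomes, was at 31.7, 36.3 and 36.4 FPKM at 2 kPa and at 40.7, 54.1 and 39.0 FPKM at 25 kPa. The highest library was replicate 2 at 25 kPa, and the log2 fold change of 0.33 (SE 0.14, adjusted p = 0.482) was 0.19 without that library. Neither RAB13 nor RAB20 kept an unadjusted p under 0.05 in every setting, with 11 and 4 of 16 respectively, and RAB5A had 10.

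**Figure D3:**
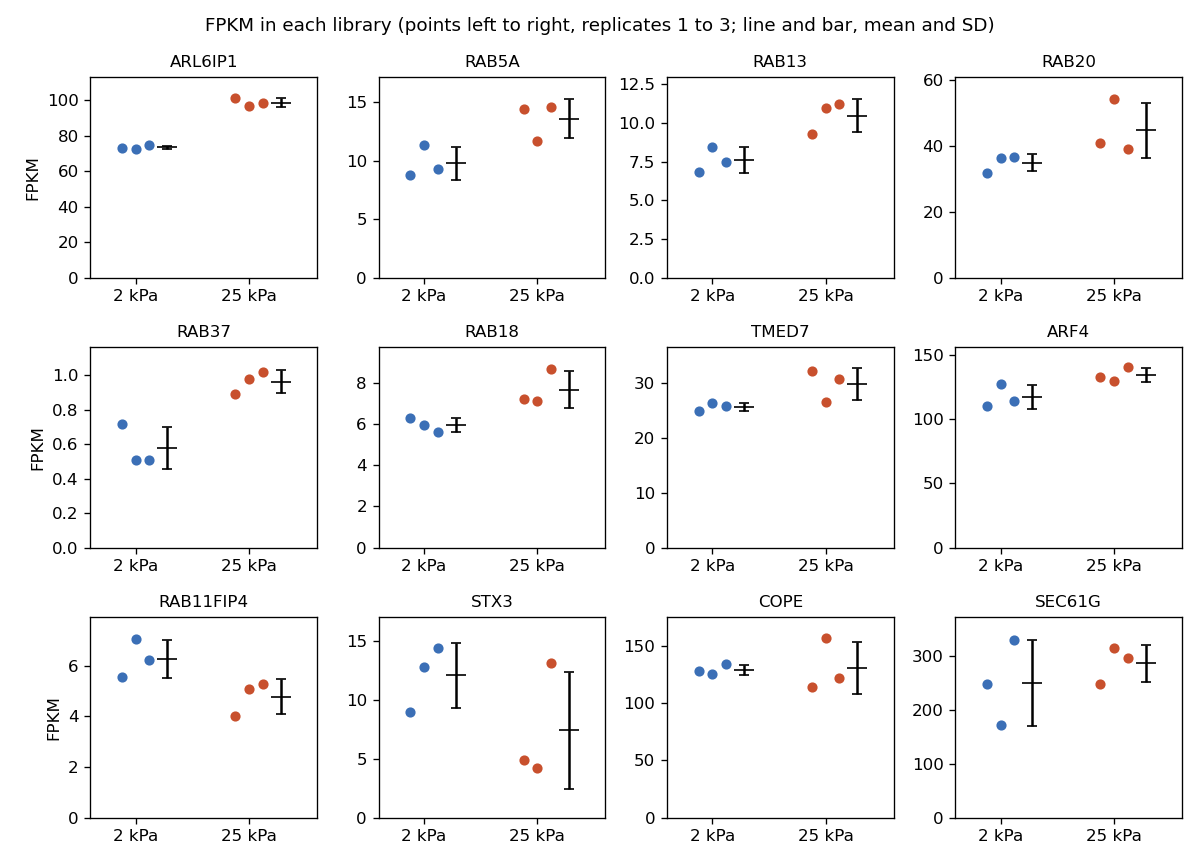
FPKM of 12 transport genes in each library (linear axes from 0), with replicates 1 to 3 from left to right and the mean with its SD beside them, 2 kPa in blue and 25 kPa in red. ARL6IP1 separates clearly, at 72.6 to 74.7 FPKM against 96.8 to 101.4 FPKM, whereas COPE and SEC61G overlap and STX3 has 1 stiff library among the soft ones.

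Without overlap between groups, 19 transport genes were higher in all 25 kPa libraries (14.6%, beside 11.2% of all genes) and 1 was lower (0.769%, beside 4.78% of all genes). The higher genes came from nearly every step, among them TMED5 and TMED7 of the p24 cargo proteins, COPZ1 of the COPI coat, SEC23A of the COPII coat, TRAPPC4 and TRAPPC11 of the TRAPP tether, STX12 of the endosomal SNAREs, and the GTPases ARF4, RAB2A, RAB4A, RAB18, RAB28 and RAB37. The single lower gene was RAB11FIP4, an effector that binds RAB11 on recycling endosomes. It stood at 5.55, 7.05 and 6.23 FPKM at 2 kPa and 4.00, 5.07 and 5.27 FPKM at 25 kPa, with a log2 fold change of -0.33 (SE 0.18, adjusted p = 0.591).

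The split of 19 higher against 1 lower depended on how the libraries were scaled to each other. After scaling to equal library sums it was 4 against 4, after quantile normalisation 9 against 3, and after median centring 11 against 3. Over all genes the share of non-overlapping genes that were higher went from 70.0% as deposited to 40.7% with equal sums, 52.4% with quantile normalisation and 52.6% with median centring. Only RAB37 and ARL6IP1 were higher without overlap under all 4 scalings, and only RAB11FIP4 was lower under all 4. RAB37, linked to regulated secretion, was low in level, at 0.72, 0.51 and 0.51 FPKM at 2 kPa and 0.89, 0.98 and 1.02 FPKM at 25 kPa (log2 fold change 0.32, SE 0.14, adjusted p = 0.491). At so low a level the pseudocount of 1 damps the value, which was 0.66 and 0.74 with pseudocounts of 0.1 and 0.01. The log2 fold change of each of the 19 genes stayed above 0 in every setting run. Only the 3 other scalings could have turned that sign, because these genes were chosen as higher in every 25 kPa library.

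**Figure D4:**
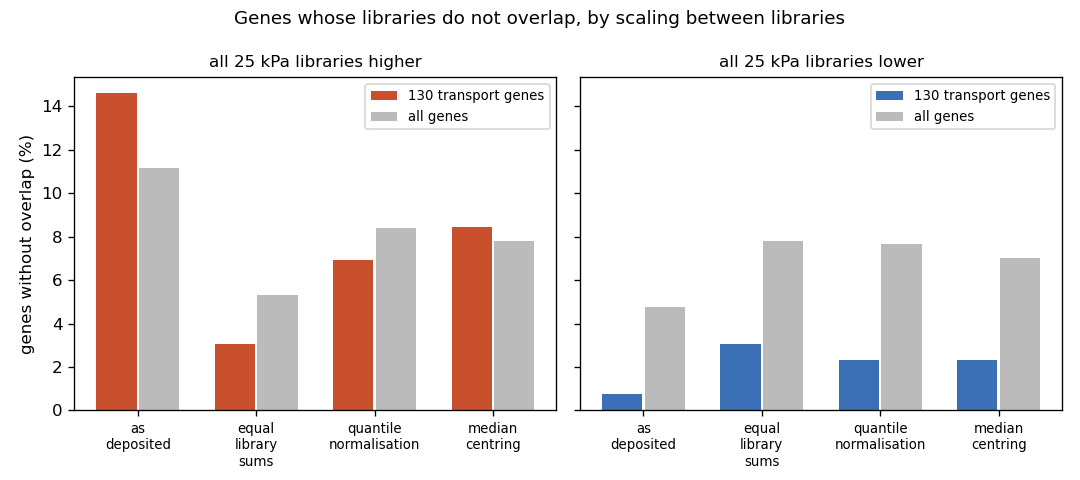
Share of genes (%) whose 3 libraries at 25 kPa lay wholly above (left) or wholly below (right) the 3 at 2 kPa, for the transport genes (coloured bars) and all genes (grey bars), with values as deposited and after 3 other scalings. The higher share of transport genes is 14.6% as deposited, and it is below that of all genes with equal library sums and quantile normalisation.

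At the entry to the pathway, 3 subunits of the SEC61 channel were the most abundant of the 8 genes of this step selected by symbol. SEC61G and SEC61B, its small gamma and beta subunits, and SEC61A1, the pore-forming alpha subunit, had means of 268, 172 and 149 FPKM, and neighbours in this order overlapped. SEC61G was 247, 171 and 330 FPKM at 2 kPa and 248, 315 and 296 FPKM at 25 kPa, so the library with the lowest level was replicate 2 at 2 kPa. The same library had the highest SEC61A1 level, at 195 FPKM against 118 to 158 FPKM in the others. The auxiliary proteins SEC62 and SEC63 were at 4.48 and 1.01 FPKM, and the alternative alpha subunit SEC61A2 was at 0.19 FPKM. SEC11A and SEC11C, catalytic subunits of signal peptidase, had log2 fold changes of -0.37 (SE 0.26) and 0.24 (SE 0.22), the latter 0.36 and 0.38 with pseudocounts of 0.1 and 0.01, and the libraries of both overlapped. The median over the 8 genes of this step was 0.11.

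The COPII coat was led by SEC23A, part of the inner coat, at 19.9, 21.6 and 21.9 FPKM at 2 kPa and 22.5, 22.2 and 27.3 FPKM at 25 kPa. It did not overlap between groups (log2 fold change 0.17, SE 0.12), while its paralog SEC23B averaged 0.993 FPKM, 22.7-fold below it. SEC24D, the next in level and a cargo-binding inner coat protein, was 3.94, 8.28 and 3.70 FPKM at 2 kPa and 4.61, 3.52 and 6.90 FPKM at 25 kPa, with replicate 2 the highest of the soft and the lowest of the stiff libraries. The outer coat genes SEC31A and SEC13 were at 2.80 and 1.90 FPKM. The median change over the 8 COPII genes was -0.02.

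The p24 proteins, which sort cargo between ER and Golgi, formed a graded series. TMED9 averaged 123 FPKM and TMED10 82.2 FPKM, followed by TMED7 at 27.7, TMED1 at 21.3 and TMED5 at 3.72 FPKM, and each of these neighbours was separated without overlap over the 6 libraries. TMED7 was 24.9, 26.3 and 25.8 FPKM at 2 kPa and 32.2, 26.5 and 30.8 FPKM at 25 kPa (log2 fold change 0.21, SE 0.12). TMED5 gave 3.11, 3.54 and 2.87 FPKM at 2 kPa and 4.72, 3.64 and 4.46 FPKM at 25 kPa (0.33, SE 0.20). For both the groups were apart by a small margin, set by replicate 2. TMED7 shares exons with the readthrough gene TMED7-TICAM2, at 0.943 FPKM, so its value is uncertain.

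Coatomer, the COPI coat complex, is recruited to membranes as a unit, and the FPKM of its 7 genes measured here spanned a 150-fold range. Whether this range lies in the mRNA levels or in the assignment of reads to genes was not tested. COPE averaged 130 FPKM, COPG1 74.4, COPB1 32.8, COPG2 16.2 and COPB2 4.75 FPKM, each separated from the next over the 6 libraries, and COPZ1 and COPA were at 1.13 and 0.867 FPKM and overlapped. None of these 7 had an unadjusted p under 0.05. COPZ1, the small zeta subunit, was 0.93, 1.24 and 0.47 FPKM at 2 kPa and 1.32, 1.32 and 1.48 FPKM at 25 kPa (log2 fold change 0.36, SE 0.20, and 0.67 and 0.74 with pseudocounts of 0.1 and 0.01). COPE, the epsilon subunit, differed least, with 128, 126 and 134 FPKM at 2 kPa and 114, 157 and 122 FPKM at 25 kPa, a log2 fold change of 0.01 with a 95% interval of -0.31 to 0.32.

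The ARF GTPases, a family that includes recruiters of these coats, were led in deposited FPKM by ARF5 and ARF4, at 155 and 126 FPKM, whose libraries overlapped. Here too, whether the order lies in the mRNA levels or in the assignment of reads was not tested. ARF6, which acts at the plasma membrane, was 7.13-fold below ARF4, and ARF1 and ARF3 followed at 3.29 and 1.55 FPKM. ARF4 was 110, 128 and 114 FPKM at 2 kPa and 133, 130 and 140 FPKM at 25 kPa, higher in all stiff libraries (log2 fold change 0.20, SE 0.11), and ARF4-AS1 lies on its opposite strand. ARF5 was lower without overlap under 2 of the other scalings, at -0.11 (SE 0.13) as deposited.

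The 17 genes of the ARL family and its partners had a median log2 fold change of 0.06. Summed over these genes, the soft gel gave 223 FPKM ± 4.8 and the stiff gel 253 FPKM ± 0.81 (SDs over 3 libraries each), of which ARL6IP1 supplied 73.5 and 98.8 FPKM. ARL2, a regulator of tubulin folding, averaged 45.6 FPKM and overlapped between stiffnesses (0.01, SE 0.13).

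The medians of the TRAPP tethers and the SNAREs were 0.09 and -0.01, and single genes ran from -0.19 to 0.21 and from -0.76 to 0.25. TRAPPC4, a core TRAPP subunit, was 53.4, 41.2 and 54.7 FPKM at 2 kPa and 55.0, 55.8 and 57.6 FPKM at 25 kPa (log2 fold change 0.18, SE 0.13), and it overlaps RPS25 and SLC37A4 on the opposite strand. TRAPPC3, its partner in the core, averaged 32.3 and 35.4 FPKM at 2 kPa and 25 kPa. VAMP8, a SNARE of endosomes and of granule secretion, was the leading SNARE, with 90.6 FPKM ± 15 on the soft gel and 89.7 FPKM ± 12 on the stiff gel (SDs over 3 libraries each). STX12, of early endosomes, was 6.93, 7.02 and 7.17 FPKM at 2 kPa and 8.04, 7.82 and 8.31 FPKM at 25 kPa, the tightest SNARE within each group (0.17, SE 0.14).

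STX3, a syntaxin of the apical membrane, had the largest negative value and is named because of it, after its values were seen. It was 9.01, 12.8 and 14.4 FPKM at 2 kPa and 4.86, 4.24 and 13.2 FPKM at 25 kPa. Replicates 1 and 2 on the stiff gel were below every soft library, whereas replicate 3 lay among them, so the groups overlapped (log2 fold change -0.76, SE 0.36, 95% interval -1.58 to 0.05, limma adjusted p = 0.525). Leaving out each library in turn moved it between -1.22 and -0.50, and its unadjusted p was under 0.05 in 6 of the 16 settings, among them equal sums, quantile normalisation and median centring. VAMP5, the SNARE that ranks second by level, was 16.4, 12.8 and 14.9 FPKM at 2 kPa and 11.3, 14.1 and 9.84 FPKM at 25 kPa (-0.31, SE 0.16).

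RAB GTPases were arranged by the membrane they serve. Of those at the ER and Golgi, RAB1B, required for ER to Golgi transport, averaged 87.0 and 91.9 FPKM at 2 kPa and 25 kPa, and RAB6A of the Golgi averaged 12.6 and 12.7 FPKM. RAB18, which acts at the ER and lipid droplets, was 6.29, 5.95 and 5.63 FPKM at 2 kPa and 7.22, 7.10 and 8.70 FPKM at 25 kPa, apart without overlap (log2 fold change 0.31, SE 0.16, adjusted p = 0.563). Among RABs of exocytosis, RAB10, which directs basolateral delivery, averaged 35.7 and 35.9 FPKM, with a 95% interval of -0.24 to 0.26. RAB11A, the recycling endosome GTPase, averaged 17.1 and 18.0 FPKM (interval -0.20 to 0.34), and RAB17, an epithelial RAB of the same compartment, 17.3 and 16.1 FPKM. Medians of the RAB steps ran from 0.01 for RABs of exocytosis to 0.18 for the RABs placed in no step.

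The 7 genes of RAB partners had the highest median of the steps, 0.27, with 5 above 0 and 2 below. RAB3GAP1 and RAB3GAP2, subunits of an exchange factor for RAB18, had log2 fold changes of 0.26 (SE 0.17) and 0.33 (SE 0.23), and the libraries of both overlapped. RAB3IP, an exchange factor for RAB8, was 1.21, 1.40 and 0.95 FPKM at 2 kPa and 1.69, 1.63 and 1.67 FPKM at 25 kPa (0.29, SE 0.19, and 0.47 and 0.50 with pseudocounts of 0.1 and 0.01). None of the 7 passed an unadjusted p under 0.05.

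Several members varied more between libraries of the same gel than between gels. RAB7A, the GTPase of late endosomes, was 17.0, 37.4 and 13.6 FPKM at 2 kPa and 19.8, 15.2 and 26.3 FPKM at 25 kPa. RAB14, of the endosome to Golgi route, was 8.47, 16.6 and 6.27 FPKM and then 11.6, 6.95 and 12.03 FPKM. VAMP2, a vesicle SNARE, was 2.11, 6.41 and 0.88 FPKM and then 3.21, 1.07 and 3.38 FPKM. In each of these, replicate 2 was the highest library on the soft gel and the lowest on the stiff gel. That pattern held for 40 transport genes (30.8%, beside 25.5% of all genes), and its reverse for 13 (10%, beside 12.2%). With libraries scaled to equal sums the counts were 64 and 4 (49.2% and 3.08%, beside 40.2% and 5.49% of all genes), and with median centring 20 and 32 (15.4% and 24.6%, beside 12.3% and 28.5%). Which direction prevailed thus depended on the scaling, in the transport genes and in all genes. The 40 genes had a median transcript GC content of 44.2%, the 13 reverse genes 53.3% and the others 49.0%, and over all genes the corresponding medians were 47.7%, 54.5% and 51.8%. The part of library preparation in this was not tested.

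**Figure D5:**
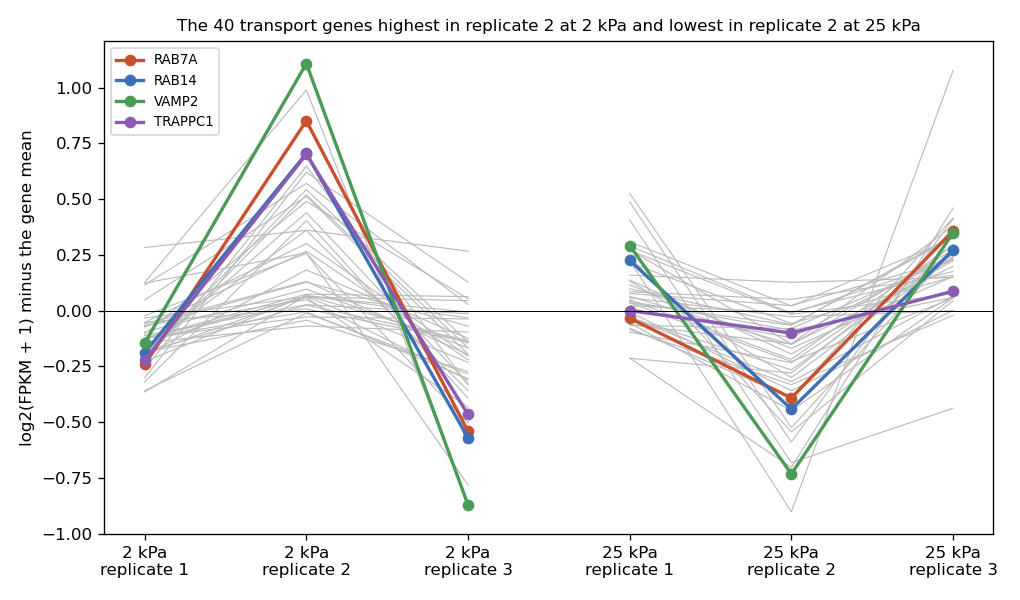
Log2(FPKM + 1) of the 40 transport genes highest in replicate 2 at 2 kPa and lowest in replicate 2 at 25 kPa, each minus its own mean over the 6 libraries, with 4 genes in colour. The genes were chosen for this shape, which describes how replicate 2 of both gels sets the spread of genes such as RAB7A (37.4 FPKM against 13.6 to 17.0 FPKM on the soft gel).

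Without replicate 2 of both gels, an alternative added after the data were seen, 54 transport genes were higher without overlap (41.5%, beside 36.7% of all genes) and 11 lower (8.46%, beside 14.2%). An unadjusted p under 0.05 was reached by 20 (15.4%, beside 17.9% of all genes), and 0 passed the adjusted threshold. Among the 20, ARL6IP1 had a log2 fold change of 0.43 and RAB5A of 0.64.

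Genes of the unfolded protein response include much of the early secretory pathway, and the promoters of transport genes that hold its motif are therefore printed. TGACGTG was present in 5.30% of transport windows (8 of 151) and in 1.68% of all windows, or in 6 of 108 transport genes (5.56%) and 169 of 6454 genes of the table (2.62%) with a window. Capitals mark the motif, which reads CACGTCA where it lies on the reverse strand, within up to 20 flanking bases (RefSeq, GRCh38.p14).
ARF1 (chr1:228082672-228082707, + strand): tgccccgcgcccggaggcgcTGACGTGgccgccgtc
SEC62 (chr3:169966771-169966806, + strand): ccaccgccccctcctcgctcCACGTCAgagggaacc
COPB1 (chr11:14499832-14499878, - strand): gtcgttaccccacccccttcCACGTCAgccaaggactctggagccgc
COPB2 (chr3:139389816-139389862, - strand): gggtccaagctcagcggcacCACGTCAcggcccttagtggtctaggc
SEC13 (chr3:10321229-10321275, - strand): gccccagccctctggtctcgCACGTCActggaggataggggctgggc
SEC16B (chr1:177984289-177984335, - strand): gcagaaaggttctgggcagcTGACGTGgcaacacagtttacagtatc
In ARF1 and SEC62 the motif begins 16 bases before the RefSeq start of the window and in COPB1 47 bases before it. By the GENCODE 29 positions of ARF1, SEC62 and COPB1, the motif lies inside each gene. The log2 fold changes of these 6 genes ran from -0.29 for SEC13 to 0.28 for SEC62, and the libraries of all 6 overlapped between stiffnesses. A match describes letters only, and these windows do not show binding.

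Genes of the same pathway that the symbols did not select gave a like picture. Of 166 listed, 116 were measured, with a median log2 fold change of 0.07. At an unadjusted p under 0.05, reached by 10.2% of all genes, 5 were higher and 0 lower, while 0 passed the adjusted threshold. The 17 translocation partners measured, which are subunits of the signal recognition particle, its receptor, the translocon-associated complex, signal peptidase and oligosaccharyltransferase, had the highest median of these lists, 0.20, with 2 at an unadjusted p under 0.05. SNARE partners (18 measured) had a median of 0.08, coat partners (12) 0.03, cargo receptors and ER to Golgi proteins (20) 0.09, Golgi and exocyst tethers (24) -0.003, and the prenylation, GDI and exchange factors of RABs and ARFs (25) 0.08. Under the 4 scalings the median of the 166-gene list ran from -0.002 to 0.07, and that of the translocation partners from 0.06 to 0.20.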

How the data were processed

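RNA from 6 SW480 cultures, 3 at 2 kPa and 3 at 25 kPa, had been sequenced, and each column was assigned to its library by the sample titles (0 columns were left unassigned). The authors deposited FPKM per gene symbol, and the submitters' processing notes name HISAT, StringTie, Bowtie2, RSEM and the build hg18 with no roles or versions. The series text also describes small RNA purification. The study gives a nominal depth and data volume but no read count per library, and whole-read steps were not seen among low values, so precision rests on the replicates.

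With limma 3.58.1 in R 4.3.3, log2(FPKM + 1) of all 8529 genes was fitted (lmFit, eBayes with trend, two-sided) and p-values were adjusted by Benjamini-Hochberg, with a threshold of 0.05. DESeq2, named by the study, needs counts and was not run. The fit was tested on simulated data in which 200 genes were changed by 1.5 on the log2 scale. Of these, 86.5% were recovered, and 12 of 185 calls were false. Transport genes ran from -0.76 to 0.44, so the simulation does not show how well changes of their size would be found.

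Members and lists were chosen with earlier results of these data known. The rule named genes past the threshold or an unadjusted p under 0.01, the 15 largest rises and 15 largest falls without overlap, the 2 most abundant genes per step, ARL6IP1, and the 3 paralog pairs that differed most. Part of what it selects was left out of the text. Other genes were named after their values were seen. Transport steps were assigned from general knowledge. Gene positions and transcript GC came from GENCODE 29 (GRCh38, not the authors' build) and promoter windows from RefSeq, matched by symbol for 108 of 130 genes. Overlap means that the ranges of the groups of 3 libraries met. Python 3.11.15 with pandas 2.3.3, numpy 2.4.6, scipy 1.17.1 and matplotlib 3.10.9 was used. Alternatives covered pseudocounts of 0.1 and 0.01, a filter at a mean of 1 FPKM, 3 other scalings, no variance trend, a replicate block, an adjusted p under 0.1, each library left out, and, added later, both replicates numbered 2 left out.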

Additional observations from a re-analysis of the deposited data

How the results depend on the processing

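No transport gene passed the adjusted threshold in any setting, an adjusted p under 0.1 included. The genes higher without overlap numbered 4, 9 and 11 with equal sums, quantile normalisation and median centring. These were 3.08%, 6.92% and 8.46%, beside 5.33%, 8.41% and 7.82% of all genes. The lower ones numbered 4, 3 and 3, or 3.08%, 2.31% and 2.31%, beside 7.79%, 7.64% and 7.03% of all genes. Leaving out 1 library gave 20 to 35 higher genes (15.4% to 26.9%, beside 14.8% to 21.2% of all genes). They numbered 31 without 2 kPa replicate 2 and 35 without 25 kPa replicate 2 (23.8% and 26.9%, beside 21.1% and 21.2%). Lower genes numbered 3 to 9 (2.31% to 6.92%, beside 7.22% to 10.2%). Groups of fewer libraries separate more easily. An unadjusted p under 0.05 was reached by 3 to 10 genes (2.31% to 7.69%, beside 7.29% to 11.7%). The 10 were without 2 kPa replicate 2 (7.69%, beside 11.3%). Without a variance trend 7 had such a p (5.38%, beside 10.6% of all genes), and without replicate 2 of both gels 20 (15.4%, beside 17.9%), with 54 higher (41.5%, beside 36.7%) and 11 lower (8.46%, beside 14.2%). With the replicate block 5 had such a p (3.85%, beside 8.36% of all genes), STX3 and STX16 entering and RAB5A leaving. Same-numbered libraries of the gels did not deviate together (r = 0.11, -0.27 and -0.12), and not every library correlated best with its own number. With 3 libraries per gel these correlations cannot settle whether the numbers pair libraries. Among step medians, RAB partners went to 0.40 and 0.41 with pseudocounts of 0.1 and 0.01, p24 proteins to -0.059 and RABs of ER and Golgi to -0.051 with equal sums, and to -0.043 and -0.052 with quantile normalisation. Leaving out 1 library moved RABs of late endosomes between -0.076 and 0.24, RABs of ER and Golgi between -0.086 and 0.14, and p24 proteins between -0.0062 and 0.13. Without replicate 2 of both gels p24 proteins were at 0.16 and RABs of late endosomes at 0.22. The cause of these shifts was not tested. The reads per library are unknown, so no detection limit can be given for the 38 genes under 1 FPKM.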

Other observations

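ER stress genes, the chaperones and enzymes that the unfolded protein response induces, were measured for 18 of 26 listed. Their median log2 fold change was 0.16, with 15 above 0, and under the 4 scalings it ran from 0.03 to 0.16. At an unadjusted p under 0.05, reached by 10.2% of all genes, 4 were higher and 0 lower, and none passed the adjusted threshold (lowest adjusted p = 0.325, limma). DNAJB11, an ER co-chaperone named after its values were seen, was 59.1, 62.6 and 63.5 FPKM at 2 kPa and 74.5, 75.5 and 83.3 FPKM at 25 kPa, without overlap (log2 fold change 0.33, SE 0.10). HSP90B1, the ER chaperone GRP94, was 135, 157 and 121 FPKM at 2 kPa and 211, 152 and 217 FPKM at 25 kPa, with replicate 2 at 25 kPa among the soft libraries (0.48, SE 0.17).

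Mitosis genes, listed for comparison, had a median log2 fold change of 0.73 over 12 measured of 15. An unadjusted p under 0.05, reached by 10.2% of all genes, was found for 9, all higher at 25 kPa. The lowest adjusted p was 0.0759 (limma). The median of the 130 transport genes was 0.06.

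Across the transport genes, mean FPKM and the mean length of coding transcripts had a Spearman rho of -0.32 (n = 130 genes of the same 6 libraries), beside -0.23 over 8164 annotated genes, and with the number of coding transcripts rho was -0.03 in both. These are descriptions across genes, which are not independent.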
